A study of Mus musculus with 16 samples.

Results

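The 10 regulators of the ATF4 arm of the integrated stress response were followed while mouse embryonic stem (ES) cells left naive pluripotency: Atf4, Atf5, Atf3, Ddit3, Cebpb, Chac1, Trib3, Ddit4, Sesn2 and Nupr1. They were taken by gene symbol from a list drawn up with earlier results of these data known, and are 10 of the 27179 genes in the deposited count table. All 10 were among the 14288 genes that passed the filter on low counts. In cells that had been kept in serum/LIF+2i, all 10 had risen by 24 h of withdrawal, as had 32.4% of all genes tested. In cells that had been kept in 2i/LIF, 6 of the 10 had risen by 24 h (29.2% of all genes), and all 10 by 40 h (34.1%). Among the calls in 2i/LIF, those of Trib3 and Cebpb at 24 h and of Ddit3 at 40 h were lost when 1 library was left out.

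The integrated stress response starts with kinases that phosphorylate the translation initiation factor eIF2alpha, among them GCN2, which senses uncharged tRNA when amino acids run short, and PERK, which senses unfolded protein in the endoplasmic reticulum. Translation then falls in general, while the mRNA of the transcription factor ATF4 is translated more through upstream open reading frames, so the level of Atf4 mRNA alone does not report ATF4 protein. ATF4 binds DNA as a dimer with other basic leucine zipper (bZIP) factors at C/EBP-ATF response elements, and its known targets include further transcription factors, amino acid transporters and synthesis enzymes, and genes that feed back on the response.

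RNA-seq was done on 16 libraries of ES cells, 2 for each of 8 groups. The cells came from serum/LIF culture and were adapted for 3 passages to 1 of 2 maintenance media and used for at most 9 passages. Both media held leukaemia inhibitory factor (LIF), 2 mM glutamine and the inhibitors CHIR99021 (3 µM, against the kinase GSK3) and PD0325901 (1 µM, against the kinase MEK), together called 2i. One medium, serum/LIF+2i, was a DMEM with 10% fetal bovine serum, and the other, 2i/LIF, was a serum-free mix of DMEM/F-12 and Neurobasal with N-2 and B-27 supplements. Exit from naive pluripotency was started by withdrawing LIF and 2i, and RNA was taken at 0, 12, 24 and 40 h. Cells from 2i/LIF exited in their own serum-free medium, whereas cells from serum/LIF+2i were moved to a serum-free mix of glutamine-free DMEM and Neurobasal to which 2 mM glutamine was added. Cells are named here by the medium they were kept in, as 2i/LIF cells and serum cells, also after withdrawal, when neither had serum. The maintenance medium and the basal medium of the exit therefore change together, and their parts in a difference between the series cannot be told apart. The protocol text names 24 and 40 h for the cells from serum/LIF+2i, and the sample titles also give 12 h. Nothing in the labels says whether the 2 libraries of a group came from separate cultures, so the p-values measure a spread between libraries that may be technical. That spread was shared across genes in the fit, with a median of 109 prior against 8 residual degrees of freedom. For most genes a p-value therefore rests more on the spread over all genes than on that of the gene's own libraries. The line and the number of clones were not given in the sources used here.

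Libraries held 5931381 to 11142744 counts over 16393 to 18392 detected genes, and the 4 libraries of serum cells at 24 and 40 h were among the 5 deepest, at 9065257 to 11142744. All 8 markers of ES cells were measured in all groups. Their summed level was 3290 to 3770 CPM (counts scaled by the effective library size) at 0 h and 3700 to 4310 at 12 h. It was 3000 to 3060 at 24 h and 2290 to 2380 at 40 h. The sum held opposite changes from 0 to 40 h. Nanog went from 665 to 27.8 CPM on average in 2i/LIF cells and from 801 to 15.5 CPM in serum cells. Esrrb went from 916 to 37.4 and from 910 to 15.6 CPM. Utf1 went from 20 to 400 and from 45.9 to 366 CPM, and Lin28a from 76.1 to 815 and from 113 to 850 CPM. For the lists of other cell types, each sum is over all markers of the list, whether or not they passed the filter. Of 6 neural markers 4 passed. The sum of the 6 went from 56.8 to 61.8 CPM at 0 h to 135 to 156 CPM at 40 h, with Neurog2 at 0 in both libraries of 5 groups. Among them Nes went from 13.3 to 44.9 CPM on average in 2i/LIF cells and from 28.9 to 30.9 CPM in serum cells. The 7 markers of 2-cell-like cells, all of which passed, went from 3.8 to 7.41 CPM at 0 h to 17.8 to 25 CPM at 40 h in 2i/LIF cells and from 1.03 to 1.47 CPM to 40.9 to 42.8 CPM in serum cells. Endoderm markers (4 of 8 passed) summed to 8.08 to 11.2 CPM at 0 h and 11.5 to 17 CPM at 40 h. Among them Dab2 went from 1.12 to 8.43 CPM on average in 2i/LIF cells and from 2.72 to 9.77 CPM in serum cells. Cxcr4 went from 3.63 to 0.726 and from 1.54 to 0.323 CPM. Pdgfra went from 2.37 to 0.873 and from 0.881 to 0.829 CPM, and Gata4 from 2.27 to 1.59 and from 2.42 to 3.71 CPM. Mesoderm markers (3 of 6) went down, from 34.6 to 41.4 CPM at 0 h to 3.88 to 4.48 CPM at 40 h in 2i/LIF cells and from 25.3 to 31.4 CPM to 5.86 to 6 CPM in serum cells. Trophoblast markers (3 of 6) went from 16.1 to 17.1 CPM to 2.17 to 3.13 CPM and from 11.5 to 13.1 CPM to 2.76 to 3.29 CPM, with Tpbpa at 0 in all groups. Fibroblast markers (4 of 6 passed) summed to at most 22.3 CPM and Postn was at 0 in all groups. Depth and these lists moved with time, as the regulators did, and their part in the results was not tested. In bulk RNA, more cells that express a gene and more RNA per cell cannot be told apart.

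The promoters of 3 of the 10 genes carry the same letters, which are shown because ATF4 dimers are known to bind the C/EBP-ATF response element. RefSeq windows of 250 bases before to 50 bases after the start (GRCm38.p6) were found for all 10 genes, Atf5 having 2. The core TGATGNAA, searched on both strands, was present in windows of 4 of the 10 genes (4 of their 11 windows), against 3.97% of 32851 windows searched. The windows searched left out 1 chromosome, which holds none of the 10 genes. In Atf3, Chac1 and Nupr1 the match lies upstream and reads TTGCATCA on the strand shown, that is, the core on the opposite strand. It spans bases -110 to -103 from the start in Atf3 and Nupr1 and bases -193 to -186 in Chac1. The match in Trib3 lies at bases 14 to 21 after the RefSeq start, and no Trib3 transcript of GENCODE M21 held the end of that window as 1 run. The 250 bases before the start are given 5′ to 3′ in the direction of transcription, with the match in capitals, for Atf3 (chr1:191183334-191183583, minus strand), Chac1 (chr2:119350992-119351241, plus strand) and Nupr1 (chr7:126625471-126625720, minus strand).
Atf3: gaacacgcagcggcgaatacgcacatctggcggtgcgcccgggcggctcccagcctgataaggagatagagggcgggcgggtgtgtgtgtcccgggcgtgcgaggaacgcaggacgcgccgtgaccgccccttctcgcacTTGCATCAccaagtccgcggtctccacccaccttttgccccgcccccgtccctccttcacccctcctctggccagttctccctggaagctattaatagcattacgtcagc
Chac1: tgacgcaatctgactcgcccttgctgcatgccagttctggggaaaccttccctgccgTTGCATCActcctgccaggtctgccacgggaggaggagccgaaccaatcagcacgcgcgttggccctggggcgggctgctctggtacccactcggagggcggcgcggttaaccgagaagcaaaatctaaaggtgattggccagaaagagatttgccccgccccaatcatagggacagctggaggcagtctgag
Nupr1: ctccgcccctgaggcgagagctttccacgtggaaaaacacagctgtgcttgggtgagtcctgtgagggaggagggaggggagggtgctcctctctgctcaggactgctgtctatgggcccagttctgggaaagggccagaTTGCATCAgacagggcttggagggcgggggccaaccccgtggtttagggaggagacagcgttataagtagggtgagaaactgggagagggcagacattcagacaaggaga
None of the 10 genes had the full cyclic AMP response element TGACGTCA in its window, which 1.79% of the windows searched held. None had the endoplasmic reticulum stress element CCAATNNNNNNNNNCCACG, which 0.119% held. The C/EBP-ATF core does not overlap with either. A match of letters is a description of these windows and was not tested as a binding site.

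Levels of different genes were compared per length, as RPKM from the deposited gene lengths. Those lengths were set against the exonic bases in GENCODE M21 only for the genes that overlap with another gene. They differ for Ddit3 (871 against 1713), Sesn2 (2658 against 3475) and Atf3 (1977 against 2154), and are equal for Atf5 and Cebpb. The lengths of Atf4, Ddit4, Chac1, Trib3 and Nupr1 were not compared. The place of a gene in the orders below can therefore depend on the gene model. Atf4 was the most abundant of the 10 in all 8 groups, with a mean of 167 RPKM at 0 h and 299 RPKM at 40 h in 2i/LIF cells, and 146 RPKM and 301 RPKM in serum cells. At 0 h in 2i/LIF cells the order below Atf4 was Nupr1 (43.9 RPKM), Sesn2 (42.4), Trib3 (22.6), Atf5 (20.2), Ddit4 (19.8), Ddit3 (16.2), Chac1 (6.38), Atf3 (0.918) and Cebpb (0.684). In that order the libraries of Nupr1 and Sesn2, of Atf5 and Ddit4, and of Atf3 and Cebpb overlapped, and the other neighbours did not. By 40 h Ddit4 had moved to the place below Atf4 in both series, at 124 RPKM in 2i/LIF cells and 144 RPKM in serum cells. Atf5 stood below it at 116 RPKM in serum cells, and at place 7, with 43.9 RPKM, in 2i/LIF cells. Atf3 and Cebpb were the lowest in all 8 groups.

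**Figure D1:**
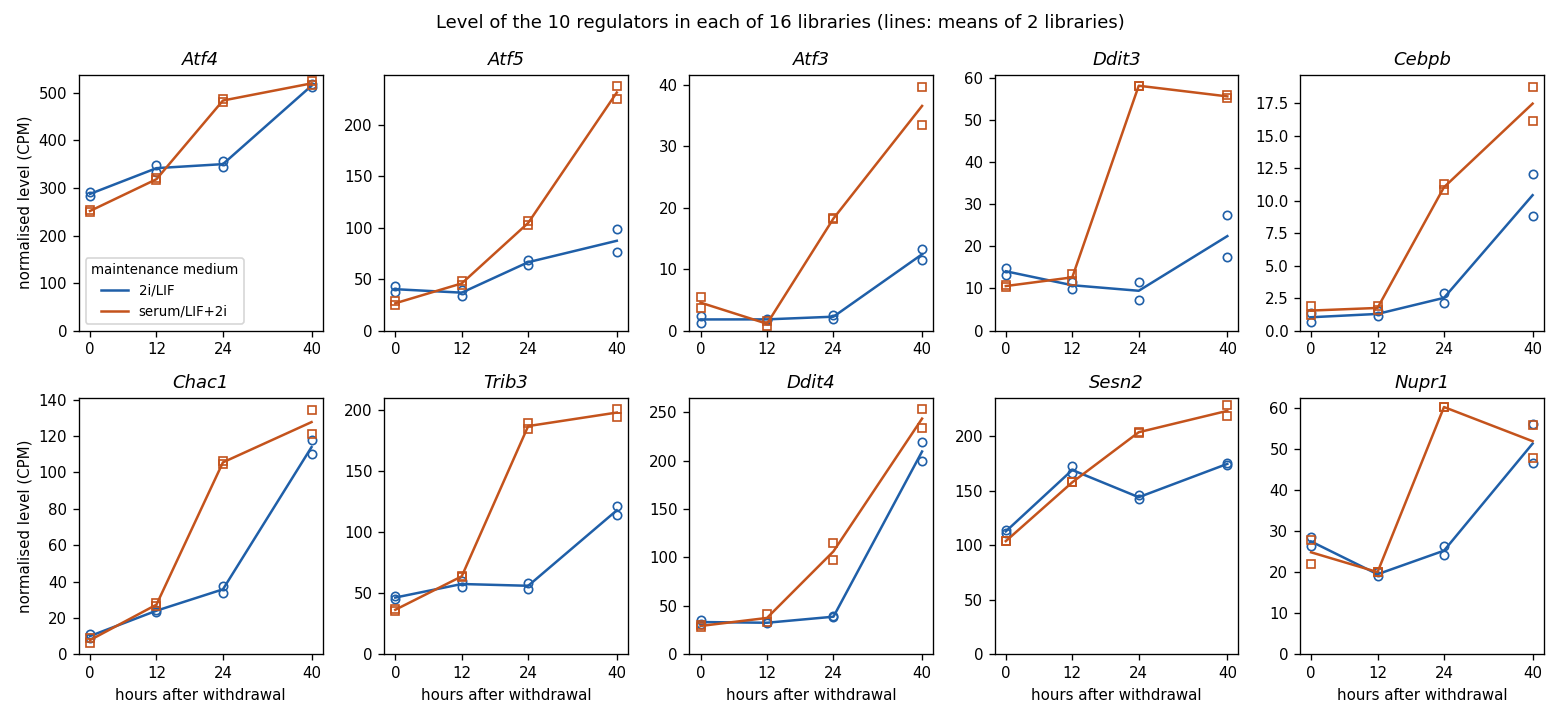
Level of each of the 10 regulators (vertical axis, CPM from 0) against hours after withdrawal of LIF and 2i (horizontal axis), with 1 point per library and lines through the means of 2 libraries; blue circles are cells kept in 2i/LIF and orange squares cells kept in serum/LIF+2i. At 24 h the orange squares of all 10 genes lie above the blue circles, and at 40 h those of Atf4 and Nupr1 overlap with them.

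Changes were tested with edgeR's quasi-likelihood F test, two-sided and adjusted by Benjamini-Hochberg over the 14288 genes, and rose or fell is written of genes at an adjusted p under 0.05. Log2 fold changes are given ± SE from the fit over all 16 libraries. From 0 to 12 h in 2i/LIF cells, 4 of the 10 rose, against 21% of all genes, and 1 fell, against 23.7%. By 24 h, 6 had risen (29.2% of all genes) and 1 had fallen (29.6%). By 40 h all 10 had risen, against 34.1% of all genes, and 6 of them at least 2-fold, against 15.5%. The median log2 change of the 10 went from 0.145 (12 h) through 0.311 (24 h) to 1.23 (40 h), while that of all genes went from -0.00443 through 0.00834 to 0.00518.

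In serum cells 6 rose by 12 h, against 25.3% of all genes, and 2 fell, against 25.9%. All 10 had risen by 24 h (32.4% of all genes), 8 of them at least 2-fold (13.2%). At 40 h all 10 had risen (35.3% of all genes), each at least 2-fold, against 16.8%. The median log2 change went from 0.341 at 12 h to 1.99 at 24 h and 2.72 at 40 h. The 3 comparisons within a series share their 0 h libraries.

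Taken step by step, 3 of the 10 rose between 12 and 24 h in 2i/LIF cells, against 17.4% of all genes, and 1 fell, against 17.7%. All 10 rose between 24 and 40 h, against 22.2%, and 7 of them at least 2-fold, against 7.17%. Serum cells had their main step earlier: all 10 rose between 12 and 24 h, against 24.2%, and 8 of them at least 2-fold, against 6.57%. Between 24 and 40 h 7 rose, against 25.9%, and 1 fell, against 24.6%. Of these steps, that of Nupr1 from 12 to 24 h in 2i/LIF cells missed the threshold without replicate 1 of 12 h (0.33, adjusted p = 0.0983) or replicate 2 of 24 h (0.31, 0.131). Those from 24 to 40 h in serum cells missed it without replicate 1 of 40 h for Atf4 (0.08, 0.126) and Sesn2 (0.09, 0.162), and for Atf4 also without replicate 1 of 24 h (0.09, 0.102).

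**Figure D2:**
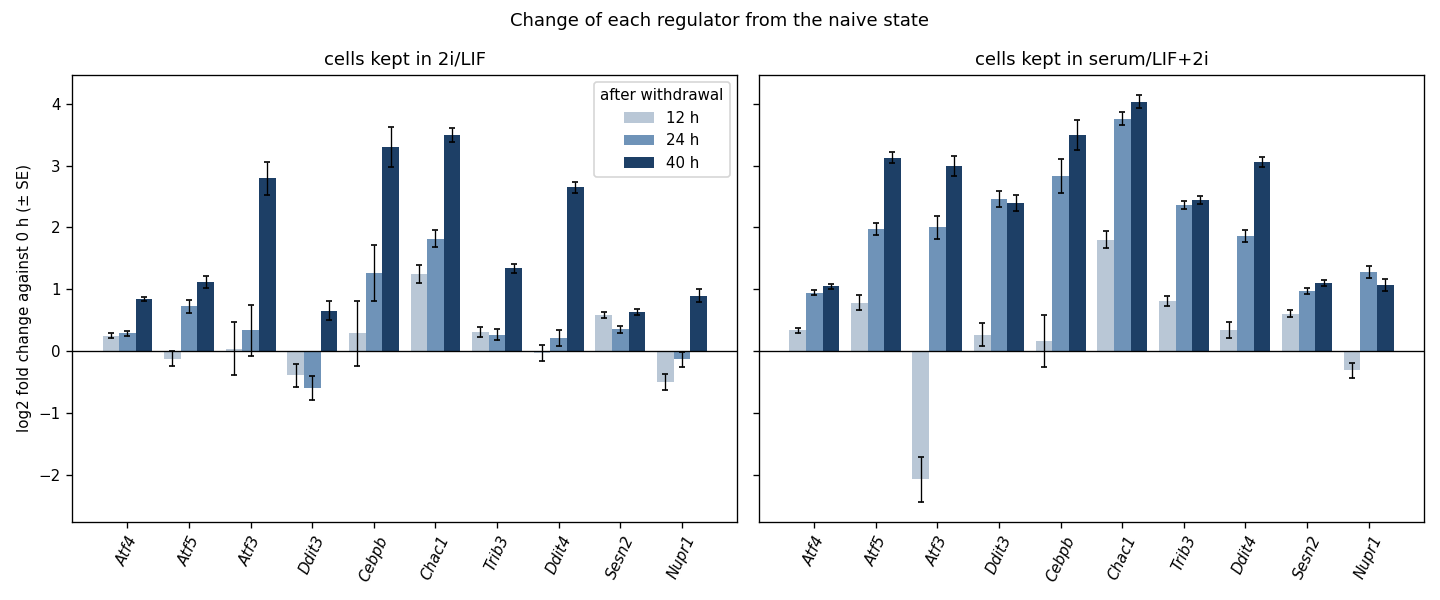
Log2 fold change of each regulator against 0 h (vertical axis, bars with SE from the fit, n = 2 libraries per group) at 12, 24 and 40 h of withdrawal, for cells kept in 2i/LIF on the left and in serum/LIF+2i on the right. On the right the bars at 24 h of all 10 genes are above 0, with Chac1 at 3.76; on the left Chac1 is at 1.82 at 24 h and Ddit3 is below 0 at -0.59.

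Atf4 encodes the transcription factor at the centre of the response. Atf4 was measured in 2i/LIF cells at 292 and 283 CPM before withdrawal, then at 349 and 334 (12 h), 343 and 357 (24 h) and 512 and 518 (40 h). Serum cells had Atf4 at 249 and 254 CPM before withdrawal, then at 317 and 320.1 (12 h), 479.8 and 488 (24 h) and 524 and 516 (40 h). The serum cells were thus near their 40 h level at 24 h, whereas 2i/LIF cells at 24 h overlapped with their own 12 h libraries. The log2 changes from 0 h to 12, 24 and 40 h were 0.25 ± 0.04, 0.28 ± 0.04 and 0.84 ± 0.04 in 2i/LIF cells (adjusted p = 3.73e-41 for the last). In serum cells they were 0.34 ± 0.04, 0.94 ± 0.04 and 1.05 ± 0.04 (9.28e-51 for the last). The change was among the smallest of the 10 at 40 h in both series, on the gene with the highest level. Atf4 was lower in serum cells than in 2i/LIF cells at 0 h, by a log2 difference of -0.19 ± 0.04 (adjusted p = 8.42e-05), and higher at 24 h, by 0.47 ± 0.04 (6.49e-21). At 40 h the media overlapped, with a log2 difference of 0.01 ± 0.04 (0.817).

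Atf5, a bZIP factor whose mRNA is under the same kind of translational control, had the largest interaction of the 10 between medium and time from 0 to 40 h, 2.01 ± 0.15. Ddit3 came next with 1.74 ± 0.22, and the order of these genes was not tested. Atf5 was measured in 2i/LIF cells at 42.9 and 37.7 CPM before withdrawal, then at 33.9 and 40.0 (12 h), 64.3 and 68.8 (24 h) and 76.4 and 98.4 (40 h). Serum cells had Atf5 at 28.5 and 24.7 CPM before withdrawal, then at 47.9 and 44.0 (12 h), 103 and 107 (24 h) and 238 and 225 (40 h). Here each time was above the one before with no overlap, while in 2i/LIF cells the 0 and 12 h libraries overlapped. The log2 change was 1.12 ± 0.10 at 40 h in 2i/LIF cells (adjusted p = 6.67e-12) and 3.12 ± 0.09 in serum cells (5.13e-26). Between 24 and 40 h it rose by 1.15 ± 0.06 in serum cells and by 0.39 ± 0.09 in 2i/LIF cells. Without replicate 2 of 2i/LIF cells at 40 h, the latter was 0.20 (adjusted p = 0.0508). Atf5 started lower in serum cells at 0 h (-0.59 ± 0.13) and was 1.41 ± 0.07 higher at 40 h (6.4e-18). Of its 1993 exonic bases, 82 (4.1%) overlap with Nup62 on the other strand, and the strand setting of the counting was not given in the sources used here. Nup62 changed by 0.39 ± 0.04 and 0.44 ± 0.04 at 40 h. Its mean level at 0 h was 251.8 CPM in 2i/LIF cells and 258.5 CPM in serum cells, above that of Atf5.

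Ddit3 encodes CHOP, a C/EBP family factor known for its role in cell death after lasting stress. Ddit3 was measured in 2i/LIF cells at 13.3 and 14.9 CPM before withdrawal, then at 11.7 and 9.89 (12 h), 7.36 and 11.6 (24 h) and 17.4 and 27.4 (40 h). Serum cells had Ddit3 at 10.4 and 10.7 CPM before withdrawal, then at 11.8 and 13.5 (12 h), 58.1 and 58.2 (24 h) and 55.2 and 56.0 (40 h). It moved in opposite directions by 24 h: in 2i/LIF cells both libraries were below those of 0 h, and in serum cells both were far above. The log2 change at 24 h was -0.59 ± 0.19 (adjusted p = 0.00611) in 2i/LIF cells and 2.46 ± 0.13 (2.51e-27) in serum cells. The fall in 2i/LIF cells was -0.29 (0.269) without replicate 1 at 24 h and -0.50 (0.0916) without replicate 2 at 0 h. At 40 h the change in 2i/LIF cells was 0.66 ± 0.15 (0.000152), and 0.30 (0.125) without replicate 2 at 40 h, so that rise rests on 1 library. In serum cells the level at 40 h differed little from that at 24 h, by -0.06 ± 0.08 (0.549), and Ddit3 was 1.32 ± 0.11 above 2i/LIF cells at 40 h (4.84e-17). Mars, on the opposite strand, shares 68 of the 1713 exonic bases of Ddit3 (4.0%). Its change at 40 h was 0.05 ± 0.04 in 2i/LIF cells and 0.03 ± 0.04 in serum cells. Its mean level at 0 h was 314.5 CPM and 307.6 CPM, above that of Ddit3.

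Atf3, a bZIP factor that can repress transcription and is induced by many stresses, was scarce in naive cells. Atf3 was measured in 2i/LIF cells at 2.41 and 1.22 CPM before withdrawal, then at 1.92 and 1.74 (12 h), 1.94 and 2.58 (24 h) and 11.5 and 13.3 (40 h). Serum cells had Atf3 at 3.67 and 5.43 CPM before withdrawal, then at 1.49 and 0.745 (12 h), 18.2 and 18.2 (24 h) and 33.4 and 39.7 (40 h). In serum cells Atf3 therefore fell before it rose, and in 2i/LIF cells the 0 h libraries overlapped with those of 12 and of 24 h. The log2 change from 0 to 12 h in serum cells was -2.07 ± 0.36 (adjusted p = 4.59e-07), and that from 12 to 24 h was 4.07 ± 0.25 (1.71e-30), a 16.8-fold rise. At 40 h the change from 0 h was 2.79 ± 0.27 in 2i/LIF cells and 3.00 ± 0.16 in serum cells. At 24 h Atf3 was 8.06-fold higher in serum cells than in 2i/LIF cells (log2 3.01 ± 0.22), where it had 14 and 17 counts. This was the largest difference between media among the 10 genes at any time. Atf3 was already higher in serum cells at 0 h, by 1.35 ± 0.35 (0.00116). That difference was 0.91 (0.103) without 2i/LIF replicate 2 and 1.04 (0.0619) without serum replicate 2.

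Cebpb encodes C/EBPbeta, a bZIP factor that forms dimers with ATF4. It was the least abundant of the 10 per length at 0 h, with 4 to 13 counts a library. Cebpb was measured in 2i/LIF cells at 0.689 and 1.37 CPM before withdrawal, then at 1.10 and 1.47 (12 h), 2.92 and 2.13 (24 h) and 12.0 and 8.83 (40 h). Serum cells had Cebpb at 1.91 and 1.18 CPM before withdrawal, then at 1.89 and 1.60 (12 h), 11.3 and 10.8 (24 h) and 18.8 and 16.2 (40 h). Both series were low up to 12 h, and the serum libraries at 24 h fell within the range of the 2i/LIF libraries at 40 h. The log2 change was 3.30 ± 0.32 at 40 h in 2i/LIF cells (adjusted p = 3.4e-17), and 2.83 ± 0.27 at 24 h (3.56e-17) and 3.49 ± 0.25 at 40 h (2.38e-26) in serum cells. A rise of 1.26 ± 0.46 at 24 h in 2i/LIF cells (0.013) was lost without replicate 1 of 0 h (0.88, adjusted p = 0.156) or replicate 1 of 24 h (1.01, 0.138). Tmem189, on the other strand, shares 312 of the 1504 exonic bases of Cebpb (20.7%). Tmem189 itself rose by 1.30 ± 0.11 at 40 h in 2i/LIF cells and by 0.66 ± 0.10 in serum cells. Its mean level went from 19.4 to 48.3 CPM and from 28.1 to 44.4 CPM, above that of Cebpb at both times. Whether reads of Tmem189 were counted for Cebpb was not tested, so the level and the changes of Cebpb are uncertain.

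Chac1 encodes an enzyme that degrades glutathione and is a standard ATF4 target. Chac1 was measured in 2i/LIF cells at 8.79 and 11.2 CPM before withdrawal, then at 24.5 and 23.4 (12 h), 33.7 and 37.7 (24 h) and 110.0 and 118 (40 h). Serum cells had Chac1 at 6.46 and 9.11 CPM before withdrawal, then at 28.0 and 26.6 (12 h), 106 and 105 (24 h) and 134 and 121 (40 h). It climbed at each time in both series with no overlap between successive times. Chac1 had the largest change from 0 h of the 10 genes in both series at 40 h: 11.3-fold in 2i/LIF cells (log2 3.49 ± 0.11, adjusted p = 6.16e-59) and 16.4-fold in serum cells (4.04 ± 0.10, 1.39e-66). Cebpb came next, with log2 changes of 3.30 ± 0.32 and 3.49 ± 0.25, and the order of these genes was not tested. Chac1 was also 1 of the 4 that had risen by 12 h in 2i/LIF cells, by 1.25 ± 0.15 (1.13e-12). The media differed by 1.56 ± 0.08 at 24 h (5.43e-37) and by 0.17 ± 0.06 at 40 h (0.0193), the latter being 0.12 (0.286) without 2i/LIF replicate 1 and 0.09 (0.443) without serum replicate 1.

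Trib3 encodes a pseudokinase known to bind ATF4 and CHOP and to restrain the response. Trib3 was measured in 2i/LIF cells at 45.1 and 47.5 CPM before withdrawal, then at 60.0 and 54.8 (12 h), 53.6 and 58.4 (24 h) and 114 and 121.5 (40 h). Serum cells had Trib3 at 37.2 and 35.5 CPM before withdrawal, then at 63.9 and 63.4 (12 h), 189 and 184 (24 h) and 201 and 194 (40 h). In 2i/LIF cells 12 and 24 h overlapped and most of the rise came after 24 h; the change from 0 to 24 h was 0.21 (adjusted p = 0.0667) without replicate 2 of 24 h. In serum cells the libraries of 24 and 40 h did not overlap but lay close, the step being 0.08 ± 0.04 (adjusted p = 0.111). The change from 0 h at 40 h was 1.34 ± 0.07 in 2i/LIF cells (9.3e-37) and 2.44 ± 0.06 in serum cells (7.31e-66). Trib3 was 0.35 ± 0.09 lower in serum cells at 0 h (0.000854 as adjusted p) and 1.74 ± 0.06 higher at 24 h (6.77e-52).

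Ddit4 encodes REDD1, an inhibitor of the growth kinase complex TORC1. Ddit4 was measured in 2i/LIF cells at 30.9 and 35.7 CPM before withdrawal, then at 31.9 and 33.2 (12 h), 39.4 and 38.1 (24 h) and 199.9 and 219 (40 h). Serum cells had Ddit4 at 30.0 and 28.5 CPM before withdrawal, then at 42.0 and 33.0 (12 h), 97.1 and 115 (24 h) and 253 and 234 (40 h). Its rise in 2i/LIF cells came almost wholly between 24 and 40 h, with a log2 step of 2.43 ± 0.09 (adjusted p = 3.29e-20) after 0.22 ± 0.13 from 0 to 24 h (0.148). In serum cells it rose by 1.52 ± 0.09 from 12 to 24 h and by 1.19 ± 0.06 from 24 to 40 h. The change at 40 h was 2.65 ± 0.09 in 2i/LIF cells and 3.06 ± 0.09 in serum cells. The rise at 12 h in serum cells, 0.34 ± 0.12 (0.023), was 0.18 (0.212) without replicate 1 of 12 h, and was also lost without either replicate of 0 h (0.38 and 0.31, adjusted p = 0.0505 and 0.0857). The difference of 0.22 ± 0.06 between media at 40 h (0.00603) was 0.16 without 2i/LIF replicate 1 (0.135) and 0.16 without serum replicate 1 (0.0839).

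Sesn2 encodes sestrin 2, a leucine-binding protein that holds TORC1 in check when amino acids are short. Sesn2 was measured in 2i/LIF cells at 111 and 114 CPM before withdrawal, then at 166 and 172 (12 h), 142 and 146 (24 h) and 175 and 174 (40 h). Serum cells had Sesn2 at 104 and 103.5 CPM before withdrawal, then at 158 and 157.5 (12 h), 203 and 204 (24 h) and 228 and 218 (40 h). It had the early rise in common between the series, and between 12 and 24 h it fell in 2i/LIF cells and rose in serum cells. The change at 12 h was 0.58 ± 0.05 in 2i/LIF cells and 0.60 ± 0.05 in serum cells, and the difference between them was 0.02 ± 0.08 (adjusted p = 0.927). From 12 to 24 h the step was -0.23 ± 0.05 (7.51e-05) in 2i/LIF cells and 0.37 ± 0.05 (8.24e-12) in serum cells. At 40 h the change from 0 h was 0.63 ± 0.05 in 2i/LIF cells and 1.11 ± 0.05 in serum cells.

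Nupr1 encodes a small stress-induced chromatin protein. Nupr1 was measured in 2i/LIF cells at 26.4 and 28.6 CPM before withdrawal, then at 19.1 and 19.9 (12 h), 24.2 and 26.3 (24 h) and 46.5 and 56.1 (40 h). Serum cells had Nupr1 at 21.9 and 27.8 CPM before withdrawal, then at 20.0 and 20.0 (12 h), 60.2 and 60.2 (24 h) and 55.9 and 47.9 (40 h). It dipped at 12 h in both series and was highest at 24 h in serum cells and at 40 h in 2i/LIF cells. The dip was -0.50 ± 0.13 in 2i/LIF cells (adjusted p = 0.000537). In serum cells it was -0.31 ± 0.12 (0.0264), but -0.12 (0.542) without replicate 2 of 0 h, and it also missed the threshold without either replicate of 12 h (-0.30 and -0.31, adjusted p = 0.0806 and 0.0964). From 24 to 40 h Nupr1 rose by 1.02 ± 0.10 in 2i/LIF cells (8.7e-16). In serum cells it changed by -0.21 ± 0.08 over the same step (0.015), a fall that was -0.12 (0.302) without replicate 2 of 40 h and missed the threshold without either replicate of 24 h (0.0584 and 0.0649). At 40 h the media overlapped, with a log2 difference of 0.02 ± 0.08 (0.86).

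The media were next compared at each time. At 0 h, 1 of the 10 was higher in serum cells than in 2i/LIF cells, against 14.6% of all genes, and 3 were lower, against 18.4%. At 12 h, 1 was higher (14.8%) and 1 lower (15.5%): Atf5, by 0.31 ± 0.11 (adjusted p = 0.0295), and Atf4, by -0.10 ± 0.04 (0.0361), neither being called without replicate 1 of 2i/LIF cells at 12 h (Atf5 0.19, Atf4 -0.07) or of serum cells at 12 h (0.25 and -0.09). At 24 h all 10 were higher in serum cells, against 14.1% of all genes, and 7 of them at least 2-fold, against 2.62%. The libraries of all 10 did not overlap at 24 h, as was so for 31.1% of all genes in that direction. At 40 h 8 of the 10 were higher, against 13.9%, and 3 at least 2-fold, against 2.19%: Atf5, Atf3 and Ddit3. As a median of the 10, the log2 difference went from -0.192 before withdrawal through 0.167 (12 h) and 1.51 (24 h) to 0.548 (40 h).

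**Figure D3:**
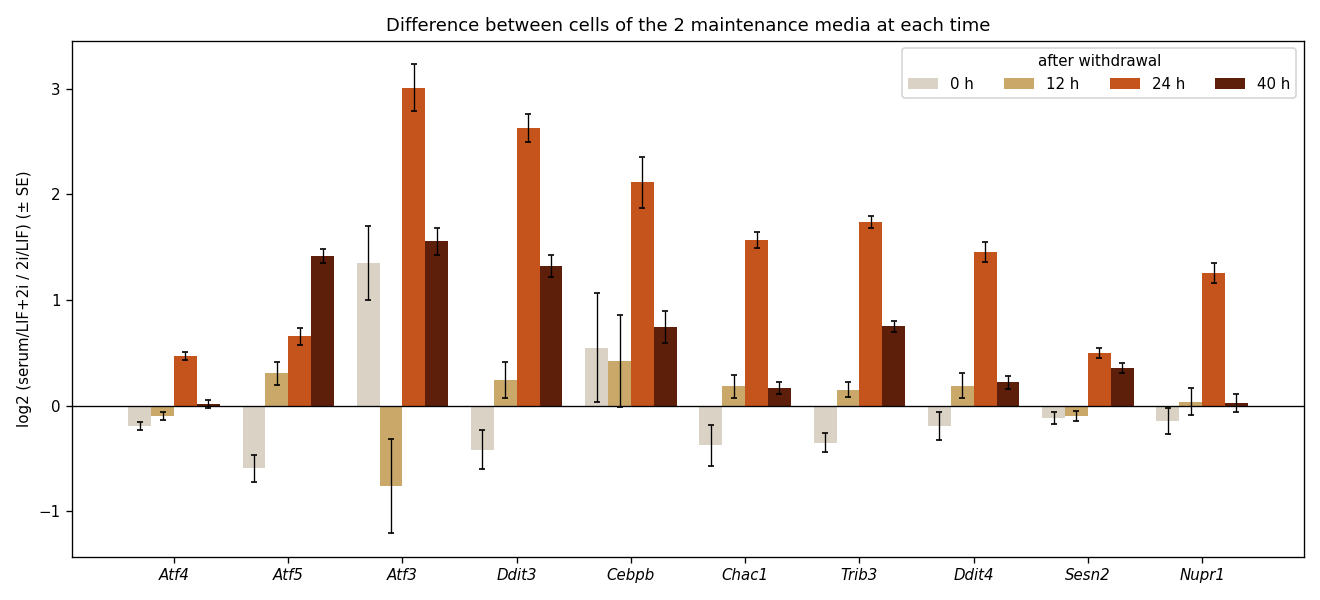
Log2 difference of each regulator between cells kept in serum/LIF+2i and cells kept in 2i/LIF (vertical axis, bars with SE from the fit, n = 2 libraries per group) at 0, 12, 24 and 40 h of withdrawal. The bars at 24 h are above 0 for all 10 genes, with Atf3 at 3.01 and Ddit3 at 2.63, and those at 40 h are near 0 for Atf4 (0.01) and Nupr1 (0.02).

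Whether the change over time itself differed between the media was tested as an interaction. Rose more or rose less is written here of a higher or lower log2 change in serum cells, whether or not the gene rose. From 0 to 12 h 2 of the 10 rose more in serum cells, against 4.8% of all genes, and 1 less, against 4.4%. From 0 to 24 h, 9 of the 10 rose more in serum cells, against 9.77% of all genes, from 0.62 ± 0.07 for Sesn2 to 3.05 ± 0.24 for Ddit3. Cebpb had a difference of 1.56 ± 0.62 that missed the threshold (adjusted p = 0.0572). That of Atf3, 1.66 ± 0.48 (0.00646), was 1.14 (0.275) without replicate 1 of 2i/LIF cells at 0 h. Over the step from 12 to 24 h 9 rose more in serum cells, against 7.21%. From 24 to 40 h the difference was in the other direction: 8 of the 10 rose less in serum cells than in 2i/LIF cells, against 5.63% of all genes, Atf5 alone rose more (0.76 ± 0.11, 4.79e-06), against 6.57%, and Sesn2 was not called (-0.14 ± 0.07, 0.146). From 0 to 40 h, 7 rose more in serum cells, against 14.8%, with Atf5 (2.01 ± 0.15), Ddit3 (1.74 ± 0.22) and Trib3 (1.10 ± 0.10) past 2-fold, against 3.67%. Those of Chac1 (0.54 ± 0.20, 0.0347) and Ddit4 (0.41 ± 0.15, 0.0378) were lost when single libraries were left out, as low as 0.31 for Chac1 (0.352, without serum replicate 1 of 0 h) and 0.30 for Ddit4 (0.241, without 2i/LIF replicate 2 of 0 h). The interactions from 0 h use the same 0 h libraries.

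Timing was also described as the share of the 40 h log2 change that a gene had reached by 24 h. For the 10 regulators the median share was 26.9% in 2i/LIF cells and 89% in serum cells. For the 3854 genes that rose by 40 h in both media, which include the 10, it was 66.9% in 2i/LIF cells (quartiles 42.3% and 91.9%) and 73.4% in serum cells (quartiles 48.5% and 97.5%). In 2i/LIF cells the share was below 0 for Ddit3 (-90.4%, over a 40 h change that rests on 1 library) and Nupr1 (-14.3%), which stood below their 0 h level at 24 h. It was 8.17% for Ddit4, 12.1% for Atf3 and 20% for Trib3, and highest for Atf5 at 65.2%. In serum cells it was lowest for Ddit4 (61%), Atf5 (63.3%) and Atf3 (66.7%), and 103% for Ddit3 and 120% for Nupr1, which stood above their 40 h level at 24 h. Atf5 thus had shares of 65.2% and 63.3% in the media, with changes of different size.

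After these values had been seen, serum cells at 24 h were set against 2i/LIF cells at 40 h. Of the 10, 6 were higher in the former, against 23.9% of all genes, and 2 were lower, against 23.6%. The median log2 difference of the 10 was 0.228, against 1.51 with both media at 24 h and 0.548 with both at 40 h. Ddit3 was 1.39 ± 0.11 higher (adjusted p = 1.87e-18) and Trib3 0.67 ± 0.05 higher (3.82e-23), while Ddit4 was 0.97 ± 0.07 lower (3.92e-13). Chac1 (-0.11 ± 0.06, 0.123) and Cebpb (0.07 ± 0.17, 0.753) were not called. Leaving out replicate 1 of 2i/LIF cells at 40 h took the calls from 8 to 5, with Atf5 at 0.09 (0.329), Nupr1 at 0.10 (0.429) and Atf4 at -0.10 (0.069). The call of Atf4 was lost when any 1 of the 4 libraries was left out.

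Genes upstream of Atf4 were read from a list of 11 kinases, phosphatases and partners of eIF2alpha, all tested. At 40 h 3 rose and 7 fell in 2i/LIF cells, and 4 rose and 4 fell in serum cells. Of all genes, 34.1% rose and 34.7% fell by 40 h in 2i/LIF cells, and 35.3% rose and 35.3% fell in serum cells. The shares of the list were near these, except that the 7 of 11 that fell in 2i/LIF cells were more than the share of all genes. The medians of the list were -0.2 and 0.0986, against 0.00518 and -0.00324 for all genes. Ppp1r15a encodes GADD34, the inducible subunit of the phosphatase that reverses eIF2alpha phosphorylation, and went in opposite directions: -0.49 at 40 h in 2i/LIF cells (adjusted p = 1.08e-05) against 0.76 ± 0.08 in serum cells (1.4e-14), an interaction of 1.25 ± 0.13 (4.54e-14). Its constitutive counterpart Ppp1r15b fell in both, with changes of -0.37 ± 0.04 in 2i/LIF cells and -0.25 in serum cells. Of the kinases, Eif2ak2 (PKR) fell in both series, with changes of -1.24 ± 0.10 and -0.99 ± 0.10. Eif2ak4 (GCN2) fell in 2i/LIF cells (-0.36) and was not called in serum cells at 40 h (0.10, adjusted p = 0.247). Eif2ak3 (PERK) rose at 24 h in serum cells by 0.59 (2.5e-07) and was not called at 40 h in either series. Impact, an inhibitor of GCN2 activation, rose by 0.40 in serum cells and fell by 0.11 in 2i/LIF cells at 40 h.

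Downstream, 30 metabolic and other effector targets of ATF4 were listed, and all 30 were tested. In 2i/LIF cells 16 rose and 7 fell by 24 h, and 22 rose and 6 fell by 40 h, with medians of 0.298 and 0.881. Of all genes, 29.2% rose and 29.6% fell by 24 h, and 34.1% and 34.7% by 40 h. In serum cells 25 rose and 4 fell at both times, with medians of 0.947 and 1.26, where 32.4% of all genes rose and 32% fell by 24 h and 35.3% each by 40 h. The medians of all genes in these comparisons lay between -0.00324 and 0.00969. At 24 h 26 of the 30 were higher in serum cells than in 2i/LIF cells, against 14.1% of all genes, and 2 were lower, against 17%. Among those that rose, the one-carbon enzyme Mthfd2 changed by 1.68 ± 0.05 at 40 h in 2i/LIF cells and 1.92 ± 0.05 in serum cells, and the amino acid transporter Slc38a2 by 1.57 ± 0.04 and 1.63 ± 0.04. Slc1a4, another neutral amino acid transporter, rose 0.97 ± 0.11 more in serum cells at 40 h. Slc7a11, the cystine transporter, which the NRF2 list also holds, rose by 2.70 and 3.99.

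The 4 effector targets that fell at both times in serum cells, named here after their values were seen, also fell at 40 h in 2i/LIF cells: Asns, Cbs, Cdkn1a and Ndrg1. Asns encodes asparagine synthetase, a standard ATF4 target. Its mean level went from 1268 CPM at 0 h to 646, 469.7 and 484 CPM at 12, 24 and 40 h in 2i/LIF cells, and from 1613 to 823, 568 and 572 CPM in serum cells. The change at 40 h was -1.39 ± 0.04 (adjusted p = 3.49e-60) and -1.50 ± 0.04 (3.22e-64), in the opposite direction to all 10 regulators. Asns was higher in serum cells than in 2i/LIF cells before withdrawal, by 0.35 ± 0.04 (1.59e-14), and at 24 h by 0.27 ± 0.04 (2.05e-09). Cbs, an enzyme of the transsulphuration pathway, changed by -2.07 ± 0.08 and -2.11 ± 0.08, and Cdkn1a, the cell cycle inhibitor p21 and a p53 target as well, by -2.32 ± 0.05 and -2.03 ± 0.05.

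The unfolded protein response of the endoplasmic reticulum, which includes PERK and also has a gene programme of its own, was read from 18 chaperones and other factors. All 18 rose between 12 and 24 h in serum cells, against 24.2% of all genes, with a median log2 step of 0.767. Of the 18, 16 fell between 24 and 40 h, against 24.6%, with a median of -0.448. In 2i/LIF cells 2 rose and 1 fell over the first of these steps (17.4% and 17.7% of all genes), and 5 rose and 9 fell over the second (22.2% and 24.5%). Over the same steps the 10 regulators all rose and then 7 rose and 1 fell in serum cells. Herpud1, a factor of the degradation of misfolded proteins, was the one with the largest change: 2.70 at 24 h and 2.05 ± 0.09 at 40 h in serum cells, and 1.58 ± 0.10 at 40 h in 2i/LIF cells. Hspa5, the chaperone BiP, was 0.38 ± 0.04 above 0 h at 40 h in serum cells. Pdia4 and Calr fell by 40 h in 2i/LIF cells, with changes of -0.56 ± 0.04 and -0.43 ± 0.04.

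**Figure D4:**
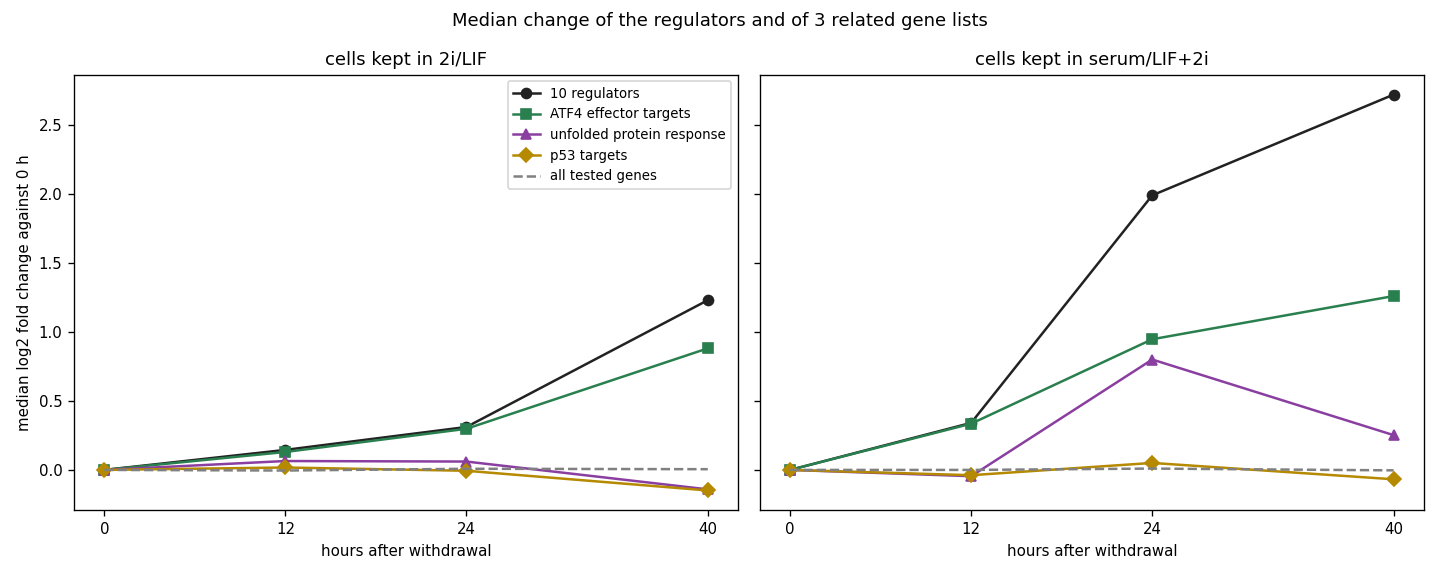
Median log2 fold change against 0 h (vertical axis) at 12, 24 and 40 h of withdrawal for the 10 regulators, 30 effector targets of ATF4, 18 genes of the unfolded protein response, 19 p53 targets and all tested genes, with cells kept in 2i/LIF on the left and in serum/LIF+2i on the right. On the right the regulators reach 1.99 at 24 h and 2.72 at 40 h, and the unfolded protein response goes from 0.8 to 0.252; on the left the regulators go from 0.311 to 1.23.

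Targets of other regulators that act on some of the same genes were read at 40 h, where 34.1% of all genes rose and 34.7% fell in 2i/LIF cells and 35.3% each in serum cells. Of 19 p53 targets, which with Cdkn1a share 1 gene with the effector list, 4 rose and 10 fell by 40 h in 2i/LIF cells and 7 rose and 7 fell in serum cells, Pmaip1 rising by 3.59 ± 0.08 and 2.42 ± 0.06. The medians of these targets were -0.149 and -0.0679. Of 11 NRF2 targets tested, 7 rose and 4 fell in 2i/LIF cells and 7 rose and 3 fell in serum cells, with medians of 0.628 and 0.488. Of 14 hypoxia targets tested, 7 rose and 3 fell in 2i/LIF cells and 7 rose and 7 fell in serum cells. The medians were 0.56 and 0.023. Pdk1 rose by 2.41 ± 0.06 and 2.20 ± 0.06, and Kdm3a fell, with changes of -1.7 ± 0.04 and -1.21 ± 0.04. Among 21 genes that feed into TORC1, on which Ddit4 and Sesn2 act, 7 rose and 7 fell in 2i/LIF cells and 8 rose and 2 fell in serum cells. These shares were near those of all genes, except that the 2 of 21 that fell in serum cells were fewer than the share of all genes. Castor2, of a family of amino acid sensors, rose by 2.56 ± 0.17 and 2.68 ± 0.15, and the GTPase Rragb by 1.57 ± 0.09 and 2.10 ± 0.10.

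The bZIP factors that could pair with ATF4 were listed as 28 genes, of which 23 were tested: 12 rose and 8 fell by 40 h in 2i/LIF cells (34.1% and 34.7% of all genes), and 14 rose and 5 fell in serum cells (35.3% each), with medians of 0.184 and 0.458. Creb3l1 rose by 3.42 ± 0.24 and 3.82 ± 0.19, and Creb3l2 fell, with log2 changes of -3.19 ± 0.15 and -2.69 ± 0.17. Cebpg, which forms dimers with ATF4, rose 0.59 ± 0.11 more in serum cells at 40 h (adjusted p = 5.36e-06). Of 7 paralogues of the 10 genes that were tested, 3 rose and 2 fell by 40 h in 2i/LIF cells and 5 rose in serum cells, against the same shares of all genes. Trib1 and Trib2 rose in both, Trib1 by 1.45 ± 0.11 and 0.94 ± 0.11 and Trib2 by 1.47 ± 0.27 and 3.17 ± 0.32. Sesn1 fell in 2i/LIF cells (-0.41 ± 0.10) where Sesn2 rose, and Chac2 rose in serum cells (1.56, adjusted p = 5.45e-07) and was not called in 2i/LIF cells (0.41, adjusted p = 0.222).

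For each regulator the 3 other genes with the most similar profile were taken by Pearson's r of log2 CPM over the 16 libraries among 10759 genes with at least 5 CPM on average. These are descriptions with no test, since the 16 points share 8 conditions and a common course in time. For Atf4 they were Stc2 (r = 0.986), Mef2b (0.984) and Slc1a4 (0.983), of which Stc2 and Slc1a4 are on the list of effector targets. For Trib3 the first was Trim66 (0.991), for Ddit4 the non-coding Miat (0.987), for Chac1 Plekha5 (0.987), and for Atf5 Kdm6b (0.980). Mthfd2 was among the 3 for Chac1 (0.983). Profiles like those of Nupr1 (Zfp110, 0.960), Atf3 (Rabep1, 0.954), Ddit3 (Kdm4a, 0.962) and Sesn2 (Plcxd2, 0.966) were less close than those like Cebpb (Ankrd11, 0.977). Arl14ep was among the 3 for both Trib3 (0.977) and Sesn2 (0.954).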

How the data were processed

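Whole-number counts per gene were deposited by the authors with a gene length column, in bases, for 16 libraries made with TRIzol and the TruSeq Stranded mRNA kit, per the labels' protocols. The submitters' processing notes name fastp, STAR, featureCounts and the mm10 build; versions, annotation and strand setting were not given in the sources used here. Genes with enough counts (filterByExpr in edgeR 4.0.16, minimum count 10 and minimum total 15, over 8 groups) were scaled by TMM. They were fitted together with 1 mean per group and 8 residual degrees of freedom. The robust quasi-likelihood F test (R 4.3.3) was applied in 20 comparisons. SE is the absolute log2 fold change over the root of F. The fit was tested on simulated data, and the outcome is not given here. CPM and RPKM were computed from the deposited counts and lengths.

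The labels' replicate numbers are shared across groups; deviations of same-numbered libraries correlated between -0.023 and 0.0331 over 28 pairs of groups, so the main fit has no block. Alternatives were DESeq2 1.42.0, its size factors in edgeR, library size only, no filter, no ribosomal RNA genes, the replicate block, and leaving out each library. Replicates of a group differed by more than counting noise in all 8 groups. The 10 genes and the gene lists were chosen with earlier results of these data known. All 10 are named; from other lists, up to 3 called genes with the smallest adjusted p at 40 h in each medium and in the interaction, and any kinase, phosphatase or paralogue. The genes with the most similar profile were named by the rule given beside them. Promoters and positions are from RefSeq (GRCm38.p6), overlaps from GENCODE M21.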

Additional observations from a re-analysis of the deposited data

Results flagged for a closer look

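The effect of withdrawal was tested for a difference between the media, as an interaction in edgeR's fit, and each regulator below passed at an adjusted p under 0.05. Values are log2 differences, serum/LIF+2i series minus 2i/LIF series, with 2 libraries in each group.

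From 0 to 12 h, Atf5 differed by 0.90 and Trib3 by 0.50, while Atf3 differed by -2.11. From 0 to 24 h, Ddit3 had the largest difference, 3.05, followed by Trib3 (2.09), Chac1 (1.94), Atf3 (1.66), Ddit4 (1.65), Nupr1 (1.40), Atf5 (1.25), Atf4 (0.66) and Sesn2 (0.62). From 0 to 40 h, Atf5 differed by 2.01, Ddit3 by 1.74, Trib3 by 1.10, Chac1 by 0.54, Sesn2 by 0.47, Ddit4 by 0.41 and Atf4 by 0.21.

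For the step from 12 to 24 h, the difference was 3.77 for Atf3, 2.39 for Ddit3, 1.69 for Cebpb, 1.59 for Trib3, 1.38 for Chac1, 1.27 for Ddit4, 1.22 for Nupr1, 0.60 for Sesn2 and 0.57 for Atf4. That of Cebpb was lost without replicate 2 of 2i/LIF at 12 h (1.48, adjusted p = 0.169), of 2i/LIF at 24 h (1.49, 0.0656) or of serum/LIF+2i at 12 h (1.56, 0.0666). For the step from 24 to 40 h it was -1.46 for Atf3, -1.40 for Chac1, -1.37 for Cebpb, -1.31 for Ddit3, -1.24 for Ddit4, -1.23 for Nupr1, -0.99 for Trib3 and -0.45 for Atf4, and 0.76 for Atf5.

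The difference of Atf3 from 0 to 12 h was lost without replicate 2 of 2i/LIF at 0 h (-1.67, 0.0859), of serum/LIF+2i at 0 h (-1.80, 0.0512) or of serum/LIF+2i at 12 h (-1.65, 0.0983).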

How the results depend on the processing

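Of 2200 values of single genes under the alternatives, 1588 of those called and 505 of those not called kept direction and call, 70 lost the call, 11 gained one and 26 changed sign, none of these 26 being called in the main analysis. Changes of sign came when 1 library was left out, in log2 fold changes of these ranges. From 0 to 12 h in 2i/LIF they were -0.40 to 0.58 for Atf3, -0.13 to 0.080 for Ddit4 and -0.089 to 0.89 for Cebpb, and to 24 h -0.10 to 0.87 for Atf3. From 0 to 12 h in serum/LIF+2i, Cebpb ran from -0.14 to 0.55. For the step from 12 to 24 h in 2i/LIF, Atf4 ran from -0.0040 to 0.064, Ddit3 from -0.55 to 0.10 and Trib3 from -0.11 to 0.024. Between media, Nupr1 ran from -0.34 to 0.013 at 0 h and from -0.11 to 0.16 at 40 h, and Atf4 from -0.0012 to 0.022 at 40 h. In the interaction at 12 h, Sesn2 ran from -0.0013 to 0.051 and Cebpb from -0.72 to 0.26, and at 40 h Atf3 ran from -0.33 to 0.64 and Cebpb from -0.40 to 0.58. For 24 h of serum/LIF+2i against 40 h of 2i/LIF, Cebpb ran from -0.12 to 0.32. Without ribosomal RNA genes, Sesn2 in the interaction at 12 h was -0.0096. The cause was not tested.

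The number of all genes called was lower with DESeq2 between media, at 3115 (edgeR 4710) for 0 h, 2668 (4334) for 12 h, 2729 (4439) for 24 h and 2010 (3897) for 40 h. The same held for the interactions, at 574 (1315) for 12 h, 1789 (2966) for 24 h, 2419 (3940) for 40 h, 1240 (2440) for 12 to 24 h and 783 (1743) for 24 to 40 h. With 1 library left out, the count between media at 40 h ran from 2240 to 3245. Of the regulators, 2 were called between media at 12 h, 1 under DESeq2, 1 under library size only and 1 with no filter, and 0 to 2 with 1 library left out. For 24 h of serum/LIF+2i against 40 h of 2i/LIF it was 8, and 5 to 7 with 1 library left out. With the replicate block 1 call was lost, Ddit4 in the interaction at 40 h (0.41, adjusted p = 0.0533), and no other call of the 10 changed. Low counts limit Cebpb and Atf3 before 24 h, and in 2i/LIF cells also at 24 h. There Atf3 had 14 and 17 counts and Cebpb 21 and 14. In the shallowest library 3 counts stood for up to 0.517 CPM.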
